A study of Mus musculus with 8 samples.

Results

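The 35 genes described here encode the machinery that carries new proteins into the endoplasmic reticulum (ER), cuts off their signal peptides, attaches N-linked glycans and packs them into vesicles. They were taken by gene symbol from a table of 25766 entries, all 35 were present once, and all 35 were among the 14907 genes tested. They were measured by RNA-seq in 8 tumors grown under the skin of female C57BL/6J mice after injection of MC38-OVA cells, which come from a mouse colon adenocarcinoma and make ovalbumin as a model antigen. Cells of 4 tumors carried shXBP1, a hairpin against Xbp1, and cells of the other 4 carried shNT. Both hairpins were in the injected cancer cells, so the host cells of a tumor keep their own Xbp1. Total RNA of whole tumors was used, with 31152334 to 36012997 counts per shXBP1 tumor and 29070605 to 32380447 per shNT tumor. In whole tumors, fewer cells of a type and less RNA per cell cannot be told apart.

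A protein destined for secretion or for a membrane is caught on the ribosome by the signal recognition particle (SRP), which brings it to its receptor at the ER. There it passes through the Sec61 channel, helped by the translocon-associated protein complex (TRAP, genes Ssr1 to Ssr4) and other partners, while signal peptidase trims it and oligosaccharyltransferase adds glycans. COPII vesicles then take folded cargo to the Golgi, and KDEL receptors return escaped ER proteins in COPI vesicles. XBP1, a transcription factor made active when IRE1 splices its mRNA, is known to raise many of these genes in secretory cells such as plasma cells.

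Xbp1 (ENSMUSG00000020484, chromosome 11, 5520659 to 5525893, plus strand, GRCm38) did not overlap between the groups, at 77.2, 76.0, 73.7 and 56.6 CPM in shXBP1 tumors 1 to 4, against 97.3, 96.0, 103 and 109 CPM in shNT tumors 1 to 4 (log2 fold change -0.51, SE 0.10, adjusted p = 0.00255). CPM are counts scaled to library size with TMM factors, and the test throughout is the quasi-likelihood test of edgeR with Benjamini-Hochberg adjustment over all genes. The keratins that define epithelial cells were near 0 in both groups, with Krt8 at 0.0737 CPM in shXBP1 and 0.155 CPM in shNT tumors and Krt19 at 0.17 CPM in shXBP1 and 0.564 CPM in shNT tumors. Epcam, another epithelial marker, averaged 0.465 CPM in shXBP1 and 0.147 CPM in shNT tumors. Cdh1, the most abundant epithelial marker, averaged 8.31 CPM in shXBP1 and 5.93 CPM in shNT tumors and did not overlap (log2 fold change 0.49, SE 0.18, adjusted p = 0.0597). None of the 3 epithelial markers tested passed with edgeR. Leukocyte markers were higher in shXBP1 tumors, 6 of 7 tested, with summed levels of 469.7 to 788 CPM in shXBP1 and 249 to 325 CPM in shNT tumors. Fibroblast markers were higher for 5 of 7, with sums of 6050.1 to 8149 CPM in shXBP1 and 1875 to 3159 CPM in shNT tumors. Most of that sum was Col3a1, at 5165 CPM in shXBP1 and 1579.6 CPM in shNT tumors, while Col1a1 and Col1a2 did not pass, at log2 fold changes of 0.052 and -0.26. Endothelial markers were higher for 3 of 5, with sums of 84.6 to 96.9 CPM in shXBP1 and 39.7 to 48.7 CPM in shNT tumors. Of the plasma cell markers, Jchain, Mzb1, Derl3 and Tnfrsf17 averaged at most 0.323 CPM in either group, while Prdm1 rose and Sdc1 did not pass. Skeletal muscle markers passed for 0 of 5 with edgeR, with sums of 14.1 to 55.1 CPM in shXBP1 and 10.1 to 35.4 CPM in shNT tumors, and of 3 adipocyte markers 1, Fabp4, rose. Beside these counts, 16.9% of all genes tested were called higher and 13.1% lower. Along the leading principal component, with 52.1% of the variance, shXBP1 tumor 4 stood at 16.2, against 43.1 to 48.7 in shXBP1 tumors 1 to 3 and -52.0 to -28.1 in shNT tumors. The part of these cell types in the results that follow was not tested beyond the fit with Ptprc given at the end.

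Of the 35 genes, 6 fell in shXBP1 tumors, 1 rose and 28 did not pass. Those that fell were Serp1, Ssr3, Sec61a1 and Sec63 of the translocon, Spcs3 of signal peptidase and Srp72 of SRP, by 0.19 to 0.49 on the log2 scale. The gene that rose was Dad1, a subunit of oligosaccharyltransferase. In all 20% of the members passed, against 30.0% of all genes tested; the 6 that fell are 17.1% of the list against 13.1% of all genes, and the 1 that rose is 2.86% against 16.9%. The groups did not overlap for 8 members, against 30.2% of all genes tested. None of the 35 changed by as much as 2-fold. Their median log2 fold change was -0.036, against -0.0054 for all genes, and the median size of the change, ignoring its sign, was 0.12 against 0.24. Among the 6138 genes with a mean of at least 36.6 CPM, the mean of the least abundant member, 35.1% passed. Of these 6138 genes, 1293 were called lower and 864 higher. Their median log2 fold change was -0.070 and the median size of the change 0.19. The authors' deposited table, made with DESeq2, gives the same sign for all 35.

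**Figure D1:**
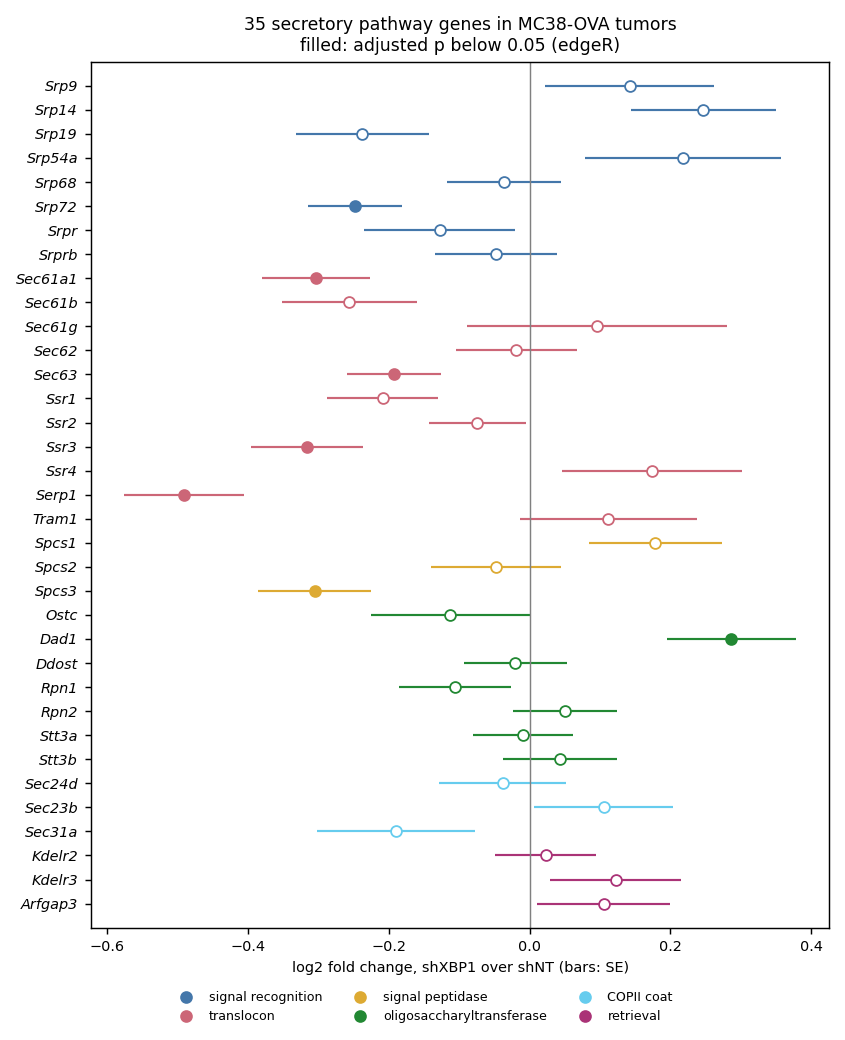
Log2 fold change of each of the 35 genes, shXBP1 over shNT, with its standard error as bars, ordered and coloured by role. Filled points passed an adjusted p of 0.05: 6 lie to the left of 0, 4 of them in the translocon, and Dad1 lies to the right.

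The promoters of the members were searched for letters that XBP1 and ATF6, another transcription factor of the ER stress response, are known to bind. RefSeq windows (GRCm38.p6) from 250 bases before to 50 bases after the start were at hand for 27 of the 35 genes. The core ACGTG, on either strand, was in 14 of the 27, or 51.9%, and in 21.8% of all 27025 genes with a window. The letters CCACG, which share bases with the core wherever CCACGT or its reverse complement occurs, were in 17 of the 27 (63.0%) and in 35.5% of all genes. Base composition differed along with these shares, since the windows of the members had a median of 61.3% G or C and 24 CG dinucleotides, against 52.7% and 7 in all windows; its part in the shares was not tested. The longer element TGACGTGG (UPRE), which contains the core, was in 2 of the 27, Kdelr3 and Sec24d, and in 0.714% of all genes. The element called ERSE, CCAAT and CCACG set 9 bases apart, was in 0 of the 27 and 0.137% of all genes, and ERSE-II, ATTGG and CCACG set 1 base apart, was in 0 of the 27 and 0.0444% of all genes. These matches are descriptions of the letters and not evidence of binding.

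The 250 bases before the start are shown for the members that passed the test and hold the core, so that its place can be seen, and after them for the 2 members with the longer element. Capitals mark the core in the first 4 and the UPRE in the last 2. The core reads CACGT where it lies on the opposite strand, as it does in all 4. Counted from the start, its first base is at -108 and again at -43 in Serp1, -189 in Ssr3, -21 in Sec63 and -146 in Dad1. Starts are those of RefSeq; in GENCODE the gene reaches further, over 175 of the printed bases for Dad1, 70 for Ssr3, 41 for Sec24d and 8 for Serp1.
Serp1 (chr3:58525885-58526134, minus strand): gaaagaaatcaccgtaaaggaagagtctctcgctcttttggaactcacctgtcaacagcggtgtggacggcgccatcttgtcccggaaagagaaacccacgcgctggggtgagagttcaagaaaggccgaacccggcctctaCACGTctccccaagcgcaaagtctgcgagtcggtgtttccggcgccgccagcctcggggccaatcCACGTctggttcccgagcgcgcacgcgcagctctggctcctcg
Ssr3 (chr3:65392554-65392803, minus strand): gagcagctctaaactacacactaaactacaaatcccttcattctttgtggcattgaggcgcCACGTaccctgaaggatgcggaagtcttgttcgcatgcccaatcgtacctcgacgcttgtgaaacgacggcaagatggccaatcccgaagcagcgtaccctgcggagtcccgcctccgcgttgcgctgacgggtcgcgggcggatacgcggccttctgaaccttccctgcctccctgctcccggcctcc
Sec63 (chr10:42761246-42761495, plus strand): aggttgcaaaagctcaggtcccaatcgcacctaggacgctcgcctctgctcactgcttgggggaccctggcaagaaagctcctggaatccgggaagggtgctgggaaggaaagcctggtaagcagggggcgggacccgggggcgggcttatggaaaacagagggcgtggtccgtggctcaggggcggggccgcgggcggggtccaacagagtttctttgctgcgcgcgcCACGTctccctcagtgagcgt
Dad1 (chr14:54253930-54254179, minus strand): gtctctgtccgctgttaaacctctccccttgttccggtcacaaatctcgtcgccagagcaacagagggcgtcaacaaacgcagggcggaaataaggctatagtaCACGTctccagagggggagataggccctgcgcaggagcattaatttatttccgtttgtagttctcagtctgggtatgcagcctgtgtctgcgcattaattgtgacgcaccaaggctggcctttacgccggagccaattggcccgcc
Kdelr3 (chr15:79516158-79516407, plus strand): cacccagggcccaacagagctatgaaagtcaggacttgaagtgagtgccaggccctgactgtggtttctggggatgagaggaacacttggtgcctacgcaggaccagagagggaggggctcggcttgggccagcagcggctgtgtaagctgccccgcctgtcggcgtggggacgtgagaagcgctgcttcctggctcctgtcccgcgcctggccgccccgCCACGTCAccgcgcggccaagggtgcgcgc
Sec24d (chr3:123267246-123267495, plus strand): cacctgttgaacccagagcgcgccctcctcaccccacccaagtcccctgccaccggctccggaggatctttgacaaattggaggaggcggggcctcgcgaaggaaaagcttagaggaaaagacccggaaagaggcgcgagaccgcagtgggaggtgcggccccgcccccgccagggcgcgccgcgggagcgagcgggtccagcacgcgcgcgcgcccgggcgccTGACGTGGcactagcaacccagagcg

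Of the 14 members with the core, Serp1, Ssr3 and Sec63 fell, Dad1 rose and 10 did not pass. Beside these, 13.1% of all genes tested were called lower and 16.9% higher. Of the 6138 genes with a mean of at least 36.6 CPM, 1293 were called lower and 864 higher. Whether the core goes with the calls was not tested. The call of Sec63 was lost without any 1 of 8 tumors, and that of Dad1 without any 1 of 4. Kdelr3 and Sec24d, with the longer element, did not pass, at log2 fold changes of 0.12 (SE 0.093) and -0.038 (SE 0.09). Srp72, which fell, has a window without the core. Sec61a1 and Spcs3, which also fell, were not among the 27.

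In SRP and its receptor 1 of 8 genes fell (12.5%, against 13.1% of all genes tested) and 7 did not pass. Srp72 (ENSMUSG00000036323, chromosome 5, 76974683 to 76999937, plus strand) encodes a subunit that forms a pair with the product of Srp68. Its level was 153, 152, 159 and 158 CPM in shXBP1 tumors 1 to 4, against 188, 187, 187 and 177 CPM in shNT tumors 1 to 4. The shXBP1 tumors lay close together and below every shNT tumor, of which tumor 4 was the lowest (log2 fold change -0.25, SE 0.067, adjusted p = 0.0144). Without shNT tumor 3 the adjusted p was 0.0528. Its partner Srp68 was at 180.2 ± 14.5 CPM in shXBP1 and 185 ± 10.3 CPM in shNT tumors (SD, n = 4 each), with a log2 fold change of -0.036 and a 95% interval of -0.21 to 0.14. Srp14 had the highest level per length of the SRP genes, a mean of 114 FPKM over the 8 tumors (the deposited FPKM, fragments scaled to gene length and library size). With Srp9 it forms the part of SRP that slows translation. Srp14 stood at 101, 126, 121 and 98.5 CPM in shXBP1 tumors 1 to 4, against 102, 80.8, 98.4 and 95.4 CPM in shNT tumors 1 to 4, and the groups overlapped (log2 fold change 0.25, SE 0.10, adjusted p = 0.0907). Srp9 was at 112 ± 19.2 CPM in shXBP1 and 102 ± 10.4 CPM in shNT tumors (SD, n = 4 each) and did not pass either. Srp14 passed without shXBP1 tumor 4 (adjusted p = 0.0304), and it was then higher. Srp19, which helps the particle assemble, had a log2 fold change of -0.24 (SE 0.094, adjusted p = 0.0761), and it passed as lower without shXBP1 tumor 2 (adjusted p = 0.0246). The receptor genes Srpr and Srprb, which anchor the particle at the ER, had log2 fold changes of -0.13 (95% interval -0.36 to 0.11) and -0.048 (-0.24 to 0.14). Srp54a encodes the GTPase that binds the signal peptide, and it has close copies, Srp54b and Srp54c, on the same chromosome, among which the counting could split reads. The 3 copies averaged 59.5, 91.2 and 76.7 CPM in shXBP1 tumors and 51.1, 87.6 and 67.8 CPM in shNT tumors, and none passed (adjusted p = 0.267, 0.668 and 0.204).

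Of the 11 translocon genes 4 fell (36.4%, against 13.1% of all genes tested) and 7 did not pass. Among the 6138 genes with a mean of at least 36.6 CPM, as all members have, 1293 were called lower. The median log2 fold change of these 11 was -0.19, and their summed level was 1642 to 1938 CPM in shXBP1 and 2020.2 to 2191 CPM in shNT tumors, ranges that do not overlap; the abundant genes weigh most in this sum. Serp1 (ENSMUSG00000027808, chromosome 3, 58519817 to 58525892, minus strand), known in its protein form as RAMP4, steadies membrane proteins at the channel and is a known target of XBP1. It was at 207, 225, 217 and 182 CPM in shXBP1 tumors 1 to 4, against 317, 283, 285 and 283 CPM in shNT tumors 1 to 4. Every shXBP1 tumor lay below every shNT tumor, with shXBP1 tumor 4 at the bottom and shNT tumor 1 at the top. The level was 1.41-fold lower (log2 fold change -0.49, SE 0.085, adjusted p = 0.00115), the greatest change among the 35, and its call held in all 17 alternative settings, with an adjusted p of at most 0.00474 when any 1 tumor was left out. Its exons share 72 bases with Eif2a on the opposite strand, with strand use in the counting not given in the sources used here.

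Ssr3 (ENSMUSG00000027828, chromosome 3, 65379655 to 65392623, minus strand), the gamma subunit of TRAP, had the highest level per length of all 35 genes, a mean of 135 FPKM. It stood at 367, 409, 431 and 379.6 CPM in shXBP1 tumors 1 to 4, against 515, 495, 491 and 474 CPM in shNT tumors 1 to 4, and fell (log2 fold change -0.32, SE 0.079, adjusted p = 0.00976). No shXBP1 tumor reached the lowest shNT tumor. The other TRAP genes did not pass. Ssr1 had a log2 fold change of -0.21 (adjusted p = 0.0629) and was called lower by DESeq2 (adjusted p = 0.0394) and without shXBP1 tumor 3 (adjusted p = 0.0359). Ssr2 had one of -0.074 (95% interval -0.22 to 0.074) and Ssr4 one of 0.17 (-0.10 to 0.45). The ratio of Ssr3 to Ssr4 in FPKM, chosen after the values were seen and not tested, was 1.13, 1.10, 1.36 and 1.46 in shXBP1 tumors 1 to 4, against 1.53, 2.16, 1.83 and 1.61 in shNT tumors 1 to 4. All 4 ratios of the shXBP1 tumors lay below those of the shNT tumors. The length implied by the deposited counts and FPKM was 3.31 kb for Ssr3 and 0.9 kb for Ssr4. Levels of genes under 1 kb moved between tumors of a group, as given below. The part of length in this ratio was not tested. Of the 4 such ratios computed, this one and that of Spcs3 to Spcs1 did not overlap between the groups, and those of Sec61a1 to Sec61g and Stt3a to Stt3b did.

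Sec61a1 (ENSMUSG00000030082, chromosome 6, 88503579 to 88518905, minus strand) encodes the channel itself. It was at 189.7, 164, 188 and 165 CPM in shXBP1 tumors 1 to 4, against 222, 216, 214 and 219.5 CPM in shNT tumors 1 to 4, and fell (log2 fold change -0.30, SE 0.077, adjusted p = 0.0103). The shNT tumors spanned a narrow range that no shXBP1 tumor entered. The ratio of Sec61a1 to Sec61g in FPKM was 1.01, 0.582, 0.861 and 0.96 in shXBP1 tumors 1 to 4, against 0.936, 1.32, 1.03 and 0.969 in shNT tumors 1 to 4. Sec61b, a small subunit of the channel, also did not overlap, at 59.3, 71.9, 74.0 and 60.6 CPM in shXBP1 tumors 1 to 4, against 78.4, 74.4, 76.0 and 88.5 CPM in shNT tumors 1 to 4, but missed the threshold (log2 fold change -0.26, SE 0.096, adjusted p = 0.0615). It passed without shXBP1 tumor 3 (adjusted p = 0.0483). Sec61g, the other small subunit, varied most within a group and did not pass, at 63.6 ± 16.0 CPM in shXBP1 and 59.5 ± 10.3 CPM in shNT tumors (SD, n = 4 each; 95% interval of the log2 fold change -0.32 to 0.51). Sec63 (ENSMUSG00000019802, chromosome 10, 42761496 to 42832514, plus strand), which draws the chaperone BiP to the channel, was at 114, 117, 115 and 109 CPM in shXBP1 tumors 1 to 4, against 133, 130.1, 128 and 129 CPM in shNT tumors 1 to 4. The groups did not overlap (log2 fold change -0.19, SE 0.067, adjusted p = 0.0453), but the call was lost when any 1 of the 8 tumors was left out (adjusted p 0.0598 to 0.102), without a filter on low counts (0.1) and with a filter of 10 CPM in 4 libraries (0.0985). Sec62, which works with Sec63, was at 174 ± 16.6 CPM in shXBP1 and 176 ± 10.03 CPM in shNT tumors (SD, n = 4 each; adjusted p = 0.891). Tram1, which assists membrane proteins at the channel, had a log2 fold change of 0.11 (95% interval -0.16 to 0.39).

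**Figure D2:**
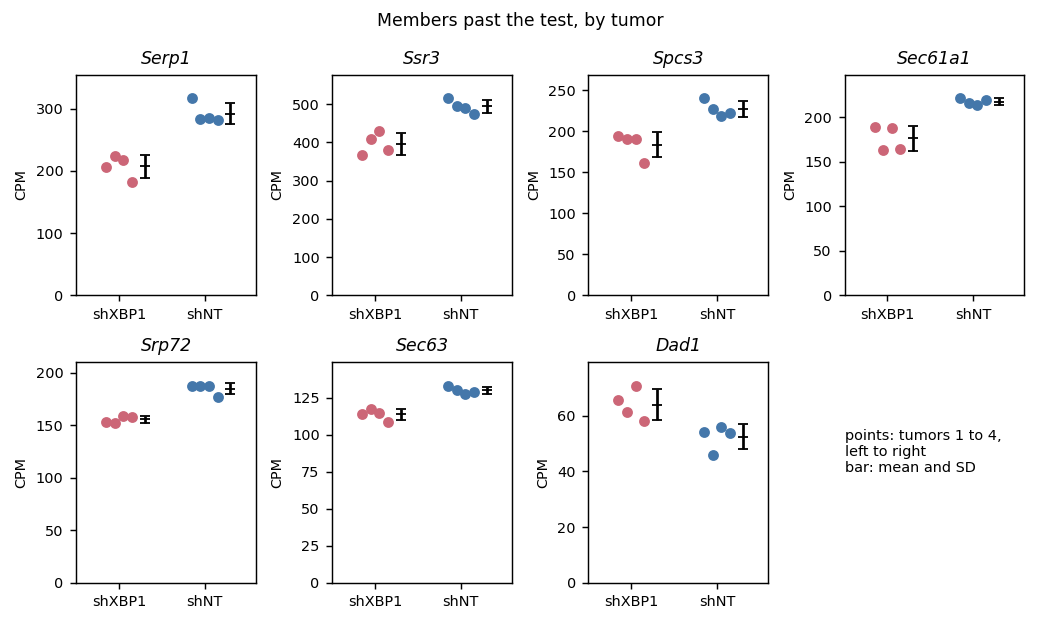
CPM of the 7 genes that passed the test, 1 panel per gene, with shXBP1 on the left and shNT on the right; points are tumors 1 to 4 from left to right and bars the mean and SD. In each panel the 2 groups do not overlap, and the ratio between the means is largest for Serp1, at 208 CPM in shXBP1 and 292 CPM in shNT tumors on average.

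Of the 3 accessory genes of signal peptidase, 1 fell, against 13.1% of all genes tested. Called lower were 1293 of the 6138 genes with a mean of at least 36.6 CPM. Spcs3 (ENSMUSG00000054408, chromosome 8, 54520433 to 54529998, minus strand) was at 194, 190, 190.3 and 161 CPM in shXBP1 tumors 1 to 4, against 240.1, 226, 219 and 222 CPM in shNT tumors 1 to 4 (log2 fold change -0.30, SE 0.08, adjusted p = 0.0131). The groups stood apart, and shXBP1 tumor 4 was the lowest of all. Spcs1, the member of this group with the highest level per length (103 FPKM), was at 80.7, 103, 90.7 and 80.8 CPM in shXBP1 tumors 1 to 4, against 82.6, 70.8, 80.4 and 80.1 CPM in shNT tumors 1 to 4, and did not pass (log2 fold change 0.18, SE 0.094, adjusted p = 0.177). Its exons share 252 bases with Glt8d1 on the opposite strand. Spcs2 was at 115 ± 13.9 CPM in shXBP1 and 119 ± 6.19 CPM in shNT tumors (SD, n = 4 each; 95% interval -0.25 to 0.15). The ratio of Spcs3 to Spcs1 in FPKM, chosen after the values were seen and not tested, was 0.497, 0.378, 0.429 and 0.41 in shXBP1 tumors 1 to 4, against 0.607, 0.656, 0.563 and 0.567 in shNT tumors 1 to 4. The highest ratio among shXBP1 tumors lay below the lowest among shNT tumors. Here too the implied lengths differed, at 3.94 kb for Spcs3 and 0.813 kb for Spcs1, and the part of length was not tested.

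Of the 7 oligosaccharyltransferase genes Dad1 rose, or 14.3% against 16.9% of all genes tested, and 6 did not pass. The median size of their log2 fold changes, the smallest of the 6 roles, was 0.05. Stt3a and Stt3b encode the alternative catalytic subunits, of which STT3A acts on proteins as they enter the channel and STT3B on sites that were skipped. Stt3a was at 171 ± 8.52 CPM in shXBP1 and 172 ± 6.03 CPM in shNT tumors and Stt3b at 159.9 ± 13.3 CPM in shXBP1 and 155 ± 8.13 CPM in shNT tumors (SD, n = 4 each), with 95% intervals of the log2 fold change of -0.16 to 0.15 and -0.13 to 0.22. The ratio of Stt3a to Stt3b in FPKM was 0.8, 0.713, 0.761 and 0.823 in shXBP1 tumors 1 to 4, against 0.744, 0.839, 0.889 and 0.751 in shNT tumors 1 to 4. Rpn2, a scaffold subunit with the highest level per length in this group (104 FPKM), was at 325, 327, 344 and 322 CPM in shXBP1 tumors 1 to 4, against 293, 319, 335 and 326 CPM in shNT tumors 1 to 4. The groups overlapped (log2 fold change 0.05, SE 0.074, adjusted p = 0.651). Its partner subunits Rpn1 and Ddost had log2 fold changes of -0.11 (95% interval -0.28 to 0.067) and -0.02 (-0.18 to 0.14), and Ostc, which ties the STT3A form to the channel, one of -0.11 (-0.36 to 0.13). Dad1 (ENSMUSG00000022174, chromosome 14, 54235479 to 54254104, minus strand), a small membrane subunit, was at 65.7, 61.2, 70.9 and 58.1 CPM in shXBP1 tumors 1 to 4, against 54.2, 45.8, 56.1 and 53.8 CPM in shNT tumors 1 to 4. Each shXBP1 tumor was above each shNT tumor, the nearest being shXBP1 tumor 4 and shNT tumor 3 (log2 fold change 0.29, SE 0.092, adjusted p = 0.0329). This call was lost without shXBP1 tumor 1 (adjusted p = 0.0775), shXBP1 tumor 3 (0.107), shNT tumor 2 (0.104) or shNT tumor 4 (0.0575).

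None of the 3 COPII coat genes and none of the 3 retrieval genes passed with edgeR, and none had an unadjusted p under 0.05; DESeq2 called none of them. Sec31a, of the outer coat, was at 172, 150.5, 164 and 205 CPM in shXBP1 tumors 1 to 4, against 161, 218, 206 and 203 CPM in shNT tumors 1 to 4. Its groups overlapped, with shXBP1 tumor 4 among the high values and shNT tumor 1 among the low ones (log2 fold change -0.19, SE 0.11, adjusted p = 0.229), and it passed as lower without shXBP1 tumor 4 (adjusted p = 0.0486). Sec24d, which selects cargo, had a 95% interval of the log2 fold change of -0.23 to 0.16, and Sec23b, which drives the coat's GTPase cycle, one of -0.11 to 0.32. Kdelr2, a KDEL receptor, was at 147, 143, 142 and 129 CPM in shXBP1 tumors 1 to 4, against 143, 135, 134 and 142 CPM in shNT tumors 1 to 4 (log2 fold change 0.023, SE 0.072, adjusted p = 0.841). Kdelr3, a second KDEL receptor, was at 42.0 ± 3.13 CPM in shXBP1 and 38.6 ± 3.68 CPM in shNT tumors (SD, n = 4 each; 95% interval -0.079 to 0.32). Arfgap3, which acts on the GTPase of COPI vesicles, was at 37.9 ± 3.55 CPM in shXBP1 and 35.3 ± 3.04 CPM in shNT tumors (-0.10 to 0.31). All 3 retrieval genes had a log2 fold change above 0, none past the test. So did 7373 of all 14907 genes tested. Of 20 other genes for COPI and retrieval, 4 had one above 0 and 16 one below.

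Per length, the 35 genes spanned a mean of 11.4 FPKM for Srp54a to 135 FPKM for Ssr3. Genes of 1 complex stood at unlike levels: TRAP ranged from 23.4 FPKM for Ssr1 to that of Ssr3, and oligosaccharyltransferase from 26.0 FPKM for Stt3a to 104 FPKM for Rpn2. The top of the order was Ssr3 at 120.3 ± 8.57 FPKM in shXBP1 and 150.1 ± 7.64 FPKM in shNT tumors, followed by Ssr2 at 129 ± 7.98 FPKM in shXBP1 and 135 ± 1.71 FPKM in shNT tumors (SD, n = 4 each). Ssr3 was above Ssr2 on average in shNT tumors and below it in shXBP1 tumors. FPKM divides by the authors' gene length, so a level of a gene with long alternative ends is set by that length too.

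**Figure D3:**
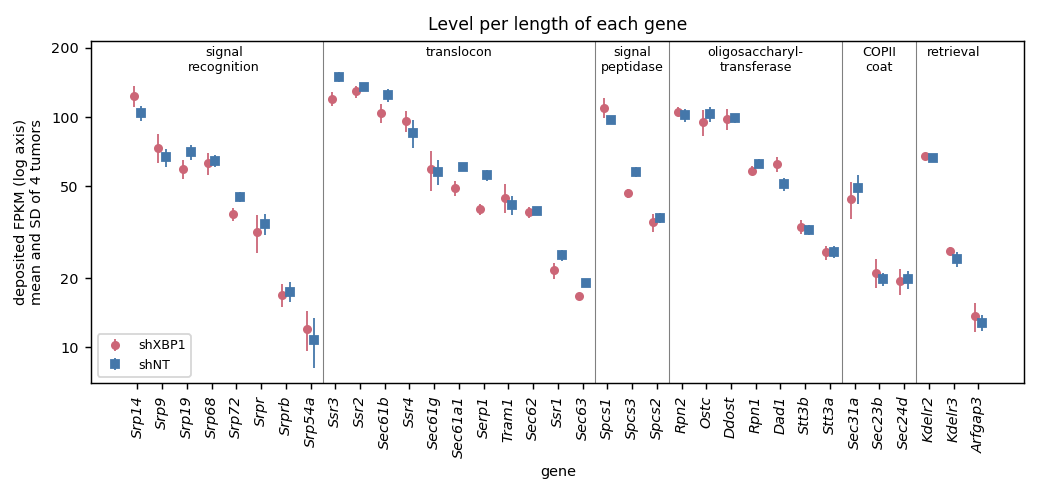
Deposited FPKM of each gene on a log axis, mean and SD of 4 tumors, shXBP1 as circles to the left and shNT as squares to the right, ordered within each role. Levels differ far more between genes, 11.4 to 135 FPKM on average, than between groups.

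In shXBP1 tumor 4, 12 of the 35 were at their lowest of all 8 tumors (34.3%, against 12.1% of all genes tested), among them Serp1, Spcs3, Tram1 and Sec61g. In shXBP1 tumor 2, 7 were the lowest and 7 the highest, or 20% each, close to the 17.9% and 17.1% of all genes. Sec61g, Srp14 and Spcs1 were highest of all in shXBP1 tumor 2, at 82.8, 126 and 103 CPM, while Srpr was lowest of all there, at 89.0 CPM. The sum over all 35 was 4649 to 5134 CPM in shXBP1 and 5145 to 5354 CPM in shNT tumors, and the lowest 2 sums were those of shXBP1 tumors 1 and 4. The groups were barely apart, with shXBP1 tumor 3 at 5134 CPM and shNT tumor 2 at 5145 CPM. The abundant genes weigh most in these sums. By role, only the sums of the translocon genes did not overlap between the groups.

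**Figure D4:**
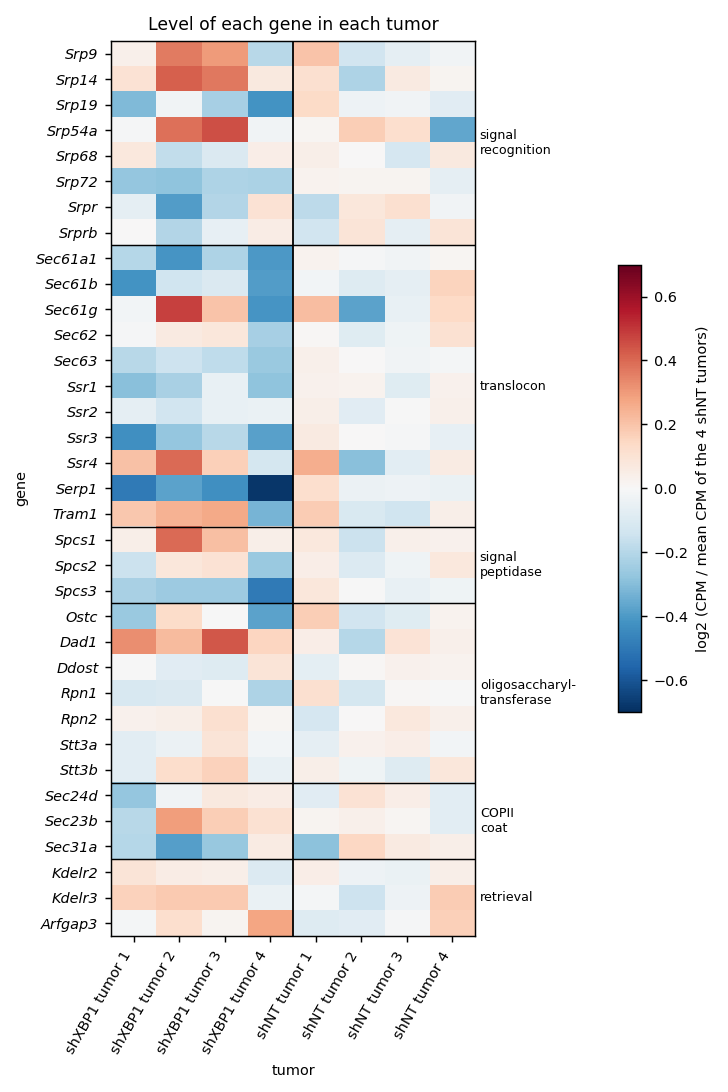
Each row is a gene and each column a tumor, shXBP1 tumors on the left; colour gives the log2 of the CPM over the mean CPM of the 4 shNT tumors. Serp1, Ssr3, Sec61a1 and Spcs3 are blue in every shXBP1 tumor, while Sec61g and Ssr4 vary within both groups.

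The members that fell had implied transcript lengths of over 3 kb. The length implied by the deposited counts and FPKM was 3.31 kb for Ssr3, 5.24 kb for Serp1 and 6.86 kb for Sec63, and 1.02 kb for Dad1, which rose. Of the 10 members over 4 kb, 8 had a log2 fold change below 0, and of the 5 under 1 kb, 3 had one above 0 (lengths were examined after the fold changes were known). Across the 35 genes, which share the same libraries, Spearman's rho between length and log2 fold change was -0.38; across all 14907 genes tested it was -0.054, with medians of 0.073 under 1 kb and -0.027 over 4 kb. The level of the 421 genes under 1 kb with at least 10 CPM moved between tumors of a group as well, their median log2 ratio to the 8-tumor mean being 0.011, 0.15, 0.071 and -0.21 in shXBP1 tumors 1 to 4 and 0.076, -0.21, -0.049 and 0.018 in shNT tumors 1 to 4. The part of length in the fold changes of the members was not tested.

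**Figure D5:**
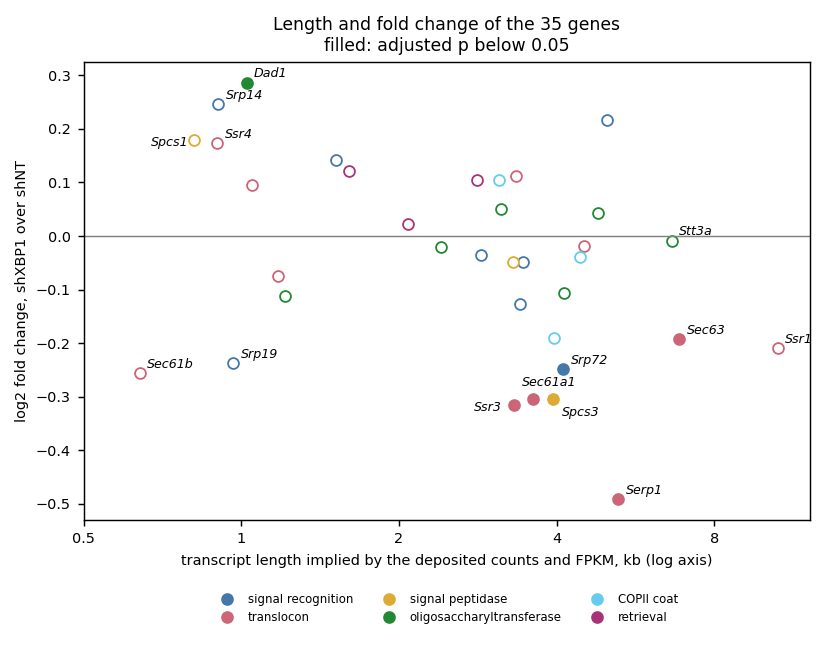
Implied transcript length in kb on a log axis against the log2 fold change, shXBP1 over shNT, 1 point per gene, filled where the adjusted p was below 0.05. The 6 genes that fell lie at 3.31 kb and above, while Sec61b and Srp19, under 1 kb, also lie below 0 and Srp54a, at 4.99 kb, lies above it.

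Of 113 other genes of the same pathway that were tested, 4 rose, 8 fell and 101 did not pass, with a median log2 fold change of -0.033; 10.6% passed, against 30.0% of all genes. Among them a further subunit of oligosaccharyltransferase rose, and so did a subunit of signal peptidase, none of whose member genes had risen. Ost4, a very small subunit of oligosaccharyltransferase, was at 72.2, 92.8, 82.8 and 68.2 CPM in shXBP1 tumors 1 to 4, against 55.1, 41.1, 58.3 and 57.6 CPM in shNT tumors 1 to 4 (log2 fold change 0.57, SE 0.13, adjusted p = 0.00487), with no overlap. Sec11c, a catalytic subunit of signal peptidase, was at 49.5 ± 6.86 CPM in shXBP1 and 38.3 ± 3.11 CPM in shNT tumors (SD, n = 4 each; log2 fold change 0.37, SE 0.11, adjusted p = 0.0197), a call lost without shXBP1 tumor 2 (0.0563), shXBP1 tumor 3 (0.0611) or shNT tumor 2 (0.0636). Sppl2a, a protease that cuts within membranes, and Copz2, a COPI subunit, also rose, by 0.39 and 0.38, but the call of Sppl2a was lost without shXBP1 tumor 1, 2 or 3 or shNT tumor 2, 3 or 4 (adjusted p up to 0.107) and that of Copz2 without shXBP1 tumor 1 or 3 or shNT tumor 1 or 2 (adjusted p up to 0.0775).

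Of the 16 genes for the ER membrane complex and for inserting tail-anchored proteins, 3 fell and none rose with edgeR (18.8% called lower, against 13.1% of all genes). An unadjusted p under 0.05 was found for 7 of the 16, against 6084 of all 14907 genes, and DESeq2 called 3 lower and 1 higher. Wrb, the receptor that inserts tail-anchored proteins, was at 23.0, 20.3, 19.2 and 17.1 CPM in shXBP1 tumors 1 to 4, against 34.0, 31.1, 32.7 and 32.8 CPM in shNT tumors 1 to 4, the greatest fall in this list (log2 fold change -0.72, SE 0.10, adjusted p = 0.000318). Every shXBP1 tumor lay well below every shNT tumor. Mmgt1, a subunit of the ER membrane complex, fell by 0.47 (SE 0.092, adjusted p = 0.00243), and Emc8, another, fell by 0.26 (adjusted p = 0.0339). Of 23 genes that build the lipid-linked glycan used by oligosaccharyltransferase, Alg10b and Alg2 fell (8.70%, against 13.1% of all genes) and 21 did not pass. Alg10b, which adds the last glucose, was at 117, 114, 117 and 116 CPM in shXBP1 tumors 1 to 4, against 181, 174, 162 and 163 CPM in shNT tumors 1 to 4 (log2 fold change -0.55, SE 0.07, adjusted p = 0.000169). Alg2, an earlier mannosyltransferase, fell by 0.28 (adjusted p = 0.0449). Lman1, a cargo receptor for glycoproteins, alone passed among 28 COPII and cargo receptor genes (3.57%), and fell by 0.23 (adjusted p = 0.0214). Of 20 COPI and retrieval genes Arcn1 and Copg2, coat subunits, fell by 0.27 and 0.30. Counting Copz2, which rose, 15% of these 20 were called in either direction, against 30.0% of all genes. The calls of Wrb, Mmgt1, Alg10b, Arcn1 and Ost4 held without any 1 tumor, but of these only that of Wrb held with the Ptprc covariate (log2 fold change -1.05, adjusted p = 0.0362). In that fit the estimates of Ost4 (-0.12), Sec11c (-0.12), Sppl2a (-0.39) and Emc8 (0.035) turned their sign (adjusted p 0.387 to 0.946). With the tumor number as a block Arcn1 did not pass (adjusted p = 0.0639). Nor did Sec11c (0.0631), Sppl2a (0.0789), Alg2 (0.102), Lman1 (0.0802), Copg2 (0.065) and Emc8 (0.0993) in that fit. Sppl2a also missed with limma voom (0.0613), and Alg2 with no filter on low counts (0.0703). With the filter of 10 CPM, Alg2, Copg2 and Emc8 missed (0.0785, 0.0542 and 0.0654). The call of Emc8 was lost without shXBP1 tumor 2 or 3 or shNT tumor 2 or 3 (adjusted p up to 0.106). That of Alg2 was lost without shXBP1 tumor 1, 2 or 3 or shNT tumor 2, 3 or 4 (adjusted p up to 0.122). That of Lman1 was lost without shXBP1 tumor 1 or shNT tumor 2 or 3 (adjusted p up to 0.0859). That of Copg2 was lost without shXBP1 tumor 1 or 3 or shNT tumor 1, 2 or 3 (adjusted p up to 0.0841). None of the 8 genes that supply hexosamine and mannose and none of the 4 for glycan trimming passed with edgeR, though 4 of the 8 and 0 of the 4 had an unadjusted p under 0.05. DESeq2 called 1 of the 8 higher and 1 lower, and 0 of the 4.

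Ptprc, which encodes the leukocyte antigen CD45, was at 156, 193, 171 and 94.8 CPM in shXBP1 tumors 1 to 4, against 59.4, 42.6, 66.5 and 56.4 CPM in shNT tumors 1 to 4. With its log2 CPM as a covariate, which itself did not overlap between the groups, the SE of a member was 2.17 times as large at the median. Of the 7 calls among the members only that of Serp1 held then (log2 fold change -0.83, adjusted p = 0.0322). Sec61g was called lower in that fit (-1.03, adjusted p = 0.0425), although its group means differed by 0.096 without the covariate. Dad1 turned to -0.062 (adjusted p = 0.907). The estimates of Ssr3, Spcs3 and Sec61a1 stayed below 0, at -0.45, -0.57 and -0.39, but did not pass (adjusted p = 0.239, 0.127 and 0.309). The median log2 fold change of the 35 members was -0.24 in this fit, against 0.0089 for all genes. Of all genes tested 0.711% were called lower in this fit and 0.899% higher.

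The number of members called moved with the tumors used, as did the share of all genes. Without shXBP1 tumors 1 to 4 in turn, 5, 6, 7 and 6 members were called lower, against 9.49, 9.70, 8.99 and 15.9% of all genes. Without shNT tumors 1 to 4 in turn, 5, 5, 4 and 5 members were called lower, against 9.86, 8.90, 8.57 and 11.0% of all genes. Without shXBP1 tumors 1 to 4 in turn, 0, 1, 0 and 2 members were called higher, against 13.9, 14.5, 13.6 and 19.2% of all genes. Without shNT tumors 1 to 4 in turn, 1, 0, 1 and 0 members were called higher, against 15.2, 13.8, 14.4 and 15.3% of all genes. With 1 surrogate variable as a covariate, 10 members were lower and 2 higher, against 17.5% and 18.9% of all genes. With the tumor number as a block, 4 members were lower and 0 higher, against 8.75% and 13.7% of all genes. With no filter on low counts, 5 members were lower and 1 higher, against 8.31% and 12.1% of all genes, and with a filter of 10 CPM in 4 libraries, 5 members were lower and 1 higher, against 13.1% and 18.4% of all genes. With DESeq2, 7 members were lower and 1 higher, against 12.3% and 15.8% of all genes, with limma voom, 6 members were lower and 1 higher, against 13.1% and 16.5% of all genes, and with RLE factors, 6 members were lower and 1 higher, against 13.1% and 16.8% of all genes.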

How the data were processed

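Whole-tumor RNA-seq of 4 shXBP1 and 4 shNT tumors was used, grouped by the sample titles. Raw counts per gene and FPKM were deposited per tumor, per the file headers. The authors' FPKM, which are scaled for length and depth, served to compare levels between genes. They also gave the ratios of genes in each tumor and, with the counts, the implied lengths. No test between the groups used them. The file headers name DESeq2 for the authors' own comparison. Per the submitters' processing notes the genome was GRCm38, with aligner, counting tool and strand setting not given in the sources used here. Coordinates come from GENCODE M21 and promoters from RefSeq. Total counts of 29070605 to 36012997 gave each member 1010 to 16355 counts per tumor. The part of counting error in the spread between tumors was not computed for single members.

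The 14907 genes kept by filterByExpr were scaled by TMM and tested with edgeR 4.0.16 (R 4.3.3; robust quasi-likelihood, no covariate, two-sided, Benjamini-Hochberg over all genes, threshold 0.05). Intervals use the t distribution of that fit. Whether each tumor had a mouse to itself is not in the labels, and the p-values then reflect only how these samples vary, which may be technical. All 35 members are named; values in every tumor are given for those that passed and for the most abundant per length in each role. Of the other secretory pathway genes, those that passed are named. The members, lists and tests were chosen with earlier results of these data known. Alternatives were DESeq2 1.42.0, limma voom (3.58.1), RLE factors, other filters, the tumor number as a block, Ptprc or 1 surrogate variable (sva 3.50.0) as a covariate, a threshold of 0.01, and leaving out each tumor. The procedure was tested on simulated data. Of the list of other genes, the 2 with no entry, Hm13 and Camlg, were left out.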

Additional observations from a re-analysis of the deposited data

Results flagged for a closer look

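In 6 of the 70 groups examined, 35 genes in each of 2 groups, 1 tumor stood far from the other 3 by Dixon's criterion, which flags about 1 group in 20 by chance. Of these, 3 concern shXBP1 tumor 4. Spcs3 was at 161 CPM in shXBP1 tumor 4 and at 190 to 194 CPM in the other 3 tumors of its group. Tram1 was at 110 CPM in shXBP1 tumor 4 and at 158 to 166 CPM in the other 3 tumors of its group. Kdelr3 was at 37.3 CPM in shXBP1 tumor 4 and at 43.2 to 43.8 CPM in the other 3 tumors of its group. That tumor also had the lowest Xbp1 and Ptprc levels of its group. The other 3 concern shNT tumors. Serp1 was at 317 CPM in shNT tumor 1 and at 283 to 285 CPM in the other 3 tumors of its group. Srp72 was at 177 CPM in shNT tumor 4 and at 187 to 188 CPM in the other 3 tumors of its group. Ssr1 was at 248 CPM in shNT tumor 3 and at 268 to 269 CPM in the other 3 tumors of its group. In Serp1, Spcs3 and Srp72 the outlying tumor still lay on its own group's side of the other group. Their part in the results was not tested beyond leaving out each tumor.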

How the results depend on the processing

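Xbp1 passed as lower in all 17 alternatives (log2 fold change -1.03 to -0.41). With RLE factors, limma voom, DESeq2, no filter, or only genes of 10 CPM in 4 libraries, 6, 6, 7, 5 and 5 members were called lower and 1 higher in each. Leaving out 1 tumor gave 4 to 7 members lower and 0 to 2 higher, and 4 to 12 of the other secretory pathway genes lower and 1 to 12 higher; the counts of 12 came without shXBP1 tumor 4, and the count of 1 higher without shXBP1 tumor 3. Members called higher and lower were 0 and 2 with the Ptprc covariate, 2 and 10 with 1 surrogate variable, and 0 and 2 at a threshold of 0.01. The other secretory pathway genes gave 0 and 3, 9 and 14, and 1 and 3 in the same fits, 11 and 5 with the filter of 10 CPM, and 7 and 11 with DESeq2. The causes were not tested. The deviations of tumors that share a number had correlations of -0.14 to -0.025, and those of tumors with unlike numbers -0.095 to 0.17. With 4 tumors per group, these values cannot settle whether the numbers pair the tumors. With the tumor number as a block, 0 members were higher and 4 lower, and 2 and 4 of the other genes. In that fit the adjusted p was 0.0563 for Dad1, 0.0678 for Srp72 and 0.136 for Sec63.

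Besides Dad1 (-0.062), these log2 fold changes turned their sign with the Ptprc covariate, all from members that had not passed: Srp9 -0.52, Srp14 -0.28, Srp54a -0.15, Srp68 0.19, Srpr 0.33, Srprb 0.26, Sec61g -1.03, Ssr4 -0.52, Tram1 -0.58, Spcs1 -0.24, Ddost 0.16, Rpn2 -0.014, Stt3b -0.14, Sec24d 0.10, Sec31a 0.33, Kdelr2 -0.15 and Kdelr3 -0.21. With the filter of 10 CPM, Srp68 0.0079, Sec62 0.025, Ddost 0.024, Stt3a 0.035 and Sec24d 0.0059 turned, and with 1 surrogate variable Sec61g -0.028. Leaving out 1 tumor turned the sign of 9 members that had not passed, with log2 fold changes of -0.052 to 0.0031 for Ddost, -0.001 to 0.066 for Kdelr2, -0.075 to 0.031 for Sec24d, -0.055 to 0.24 for Sec61g, -0.053 to 0.051 for Sec62, -0.10 to 0.022 for Spcs2, -0.074 to 0.0094 for Srp68, -0.086 to 0.0033 for Srprb and -0.043 to 0.018 for Stt3a.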
